A study of Mus musculus with 12 samples.

Results

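The Wnt pathway was read here through the 5-methylcytosine (5mC) and 5-hydroxymethylcytosine (5hmC) peaks whose nearest annotated gene encodes a Wnt ligand, an R-spondin, a Frizzled, Lrp or Lgr receptor, a secreted inhibitor or its Kremen partner, or a cytoplasmic or nuclear transducer of the signal. Members were chosen by gene symbol alone, with no measured value. They were 214 of 55085 5mC peaks, near 46 genes, and 237 of 47478 5hmC peaks, near 42 genes. Together these peaks lay nearest to 49 genes, of which 39 had peaks of both marks, 7 had 5mC peaks only and 3 had 5hmC peaks only. Of the 64 mouse genes in RefSeq whose symbols fit, 15 were nearest to no peak, namely Dkk4, Fzd2, Fzd3, Fzd6, Rspo4, Sfrp5, Wnt1, Wnt10b, Wnt11, Wnt16, Wnt2, Wnt6, Wnt8a, Wnt9a and Wnt9b.

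The cells came from the cortex of E14.5 mouse embryos carrying both a Btg2-RFP and a Tubb3-GFP reporter. Sorting gave proliferative progenitors without either reporter (PP, the neural stem cells), differentiative progenitors with RFP but not GFP (DP, committed to making neurons) and newborn neurons with GFP. PP were thus defined by the absence of both reporters, and any reporter-negative cell of the dissected tissue falls in that gate. For each mark, the DNA was barcoded by cell type and then mixed, so all 3 met the antibody in the same tube, and the 12 listed samples were 1 immunoprecipitate and 1 input per cell type and mark. The tables gave 1 value per peak, cell type and mark, which was the authors' mean over replicates on a log2 scale of normalised reads and is called the level below. No spread between replicates, no read count and no depth could be read from them, so no difference below was tested against replicate error. A peak was called higher or lower where its level differed by at least 1.5-fold, and each count of such peaks was set beside the share of all peaks of that mark that passed the same fold. Differences were taken as the later minus the earlier cell type on the log2 scale, after subtraction of the median over all peaks. That median was -0.17 for 5mC between PP and neurons and -0.18 between DP and neurons, and lay between -0.08 and -0.00 in the other comparisons.

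Wnt proteins are secreted, lipid-modified signals that bind a Frizzled receptor together with the co-receptor Lrp5 or Lrp6. Binding recruits Dishevelled and Axin to the membrane and stops the destruction complex of Axin, Apc and Gsk3 from marking beta-catenin, the product of Ctnnb1, for degradation, so that beta-catenin enters the nucleus and acts with Tcf and Lef factors. In the developing cortex the pathway is known for keeping progenitors dividing, for patterning from the medial cortical hem, and for later roles in neuronal differentiation. 5mC is the common methyl mark of mammalian DNA and is generally linked to silenced regulatory sequence, and 5hmC is made from it by the Tet enzymes and is plentiful in neurons.

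Regulatory sequence was represented at a pair of places where the peaks could be tied to printed DNA. The first was the region upstream of Wif1, which encodes a secreted protein that binds and blocks Wnt ligands. It was a site that the study chose for targeted epigenome editing, at chr10:121029536-121029699 (mm10), where a 5mC peak at chr10:121029598-121029714 and a 5hmC peak at chr10:121029575-121029689 overlapped by 91 bp. The designed guides for this region are shown because they were made for the region that holds most of both peaks, though their own positions in it were not located here, with CpG, the site that both marks occupy, in capitals and their strand not given.
Wif1 guide 1: attggctgagcaaggcagag
Wif1 guide 2: ctgtcagtctgtcctCGagt
The second was the start of Nkd1, which encodes an inhibitor that binds Dishevelled. RefSeq windows of the 250 bases before a start (GRCm38.p6, the same build) were given for 44 of the 64 genes, 53 windows in all, and a single window was overlapped by a member peak. It lay on the plus strand before an internal start of Nkd1, at chr8:88527383-88527632, and its 118 bases in capitals fell within a 5mC peak at chr8:88527367-88527500.
Nkd1 promoter: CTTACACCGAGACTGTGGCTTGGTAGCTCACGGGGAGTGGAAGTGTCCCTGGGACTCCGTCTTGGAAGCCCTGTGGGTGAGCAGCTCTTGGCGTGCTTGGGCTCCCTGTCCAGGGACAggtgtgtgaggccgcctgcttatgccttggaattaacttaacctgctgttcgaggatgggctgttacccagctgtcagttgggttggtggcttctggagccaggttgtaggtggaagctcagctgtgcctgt
This window held 6 CpG, of which 4 were under the peak. The level of that peak was 4.90 (PP), 4.97 (DP) and 3.96 (neurons). Between PP and DP it differed little, and from PP to neurons its centred difference was -0.77. The member windows as a whole held a median of 20 CpG, against 6 over all 32851 windows of the same length. The letters CTTTGA, the core of the Tcf and Lef motif, stood on either strand in 7 of the 53 windows (13.2%), beside 13.8% of all windows. The E-box CANNTG stood in 30 (56.6%), beside 66.2%, and some of its matches may overlap the other motif.

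Member peaks were mostly far from the start of their nearest gene. The median distance was 34.8 kb for 5mC and 37.3 kb for 5hmC, against 20.4 kb and 27.2 kb over all peaks. 5mC members lay inside the gene in 90 cases, upstream in 88 and downstream in 36, and 5hmC members in 93, 94 and 50. By the start that the authors annotated, none of the 5mC members and 3 of the 5hmC members lay within 1 kb. Those 3 belonged to Axin2 (0.668 kb upstream), Axin1 and Ctnnb1. RefSeq holds further starts, and a 5mC member overlapped the window of the internal Nkd1 start above. A 5mC peak of Tcf7 lay 693 bp from another RefSeq window. Nearest gene is an annotation of position, and 23 of the 5mC and 28 of the 5hmC members lay within the body of another protein-coding gene. Of the 10 5hmC peaks assigned to Wnt5a, 9 lay within Erc2, and 4 of the 12 assigned to Wnt5b lay within Erc1. Both 5hmC peaks assigned to Wnt10a lay within the body of Wnt6, a ligand gene listed above as nearest to no peak. The peaks were unevenly shared out, with 148 of the 451 nearest to 5 genes. Tcf7l2 had 28 of 5mC and 30 of 5hmC, Wif1 17 and 13, Lef1 10 and 11, Wnt5b 8 and 12, and Fzd1 8 and 11, while 6 genes had a single peak.

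Across the lineage, few member peaks of 5mC differed. Their shares were mostly near those of all peaks, with the widest gap in lower 5mC from DP to neurons. From PP to DP, 7 of the 214 were higher and 11 were lower, which is 3.27% and 5.14%, beside 4.60% and 5.44% of all 5mC peaks. From DP to neurons 11 were higher (5.14%, beside 5.12%) and 28 lower (13.1%, beside 9.36%), and from PP to neurons 10 were higher (4.67%, beside 5.00%) and 21 lower (9.81%, beside 10.2%). Without subtraction of the median over all peaks the split turned further to lower levels, with 3 higher (beside 2.26% of all 5mC peaks on that scale) and 39 lower (beside 15.5%) from DP to neurons, and 5 higher (beside 2.12%) and 39 lower (beside 16.3%) from PP to neurons. The 39 are 18.2% of the members. The median member difference was 0.02, -0.02 and -0.00 in the same order.

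5hmC differed at more member peaks, mostly towards higher levels, as over all peaks. From PP to DP, 34 of the 237 were higher (14.3%, beside 11.2% of all 5hmC peaks) and 14 were lower (5.91%, beside 4.68%). From DP to neurons 51 were higher (21.5%, beside 16.5%) and 15 lower (6.33%, beside 7.07%). From PP to neurons 63 were higher (26.6%, beside 22.1%) and 17 lower (7.17%, beside 7.71%). These comparisons share their cell types, so their counts are not independent. The 63 peaks had a median level of 3.66 (PP), 4.29 (DP) and 5.01 (neurons), and 54 of them stood above 0 on the centred scale at both steps. Past the fold, 30 of the 63 were higher in DP than in PP, 39 were higher in neurons than in DP, 19 passed at both steps and 13 at neither. Of these 63, 24 had a mean level under 4, where fewer reads stand behind a value. Over all 5hmC peaks, 10484 were higher from PP to neurons, with median levels of 3.77, 4.27 and 4.97. Of these, 8567 stood above 0 at both steps. Past the fold, 4567 were higher at the first step, 6694 at the second, 2760 at both and 1983 at neither. A mean level under 4 was found at 3559 of them. The steps of the members were thus much like those over all peaks.

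**Figure D1:**
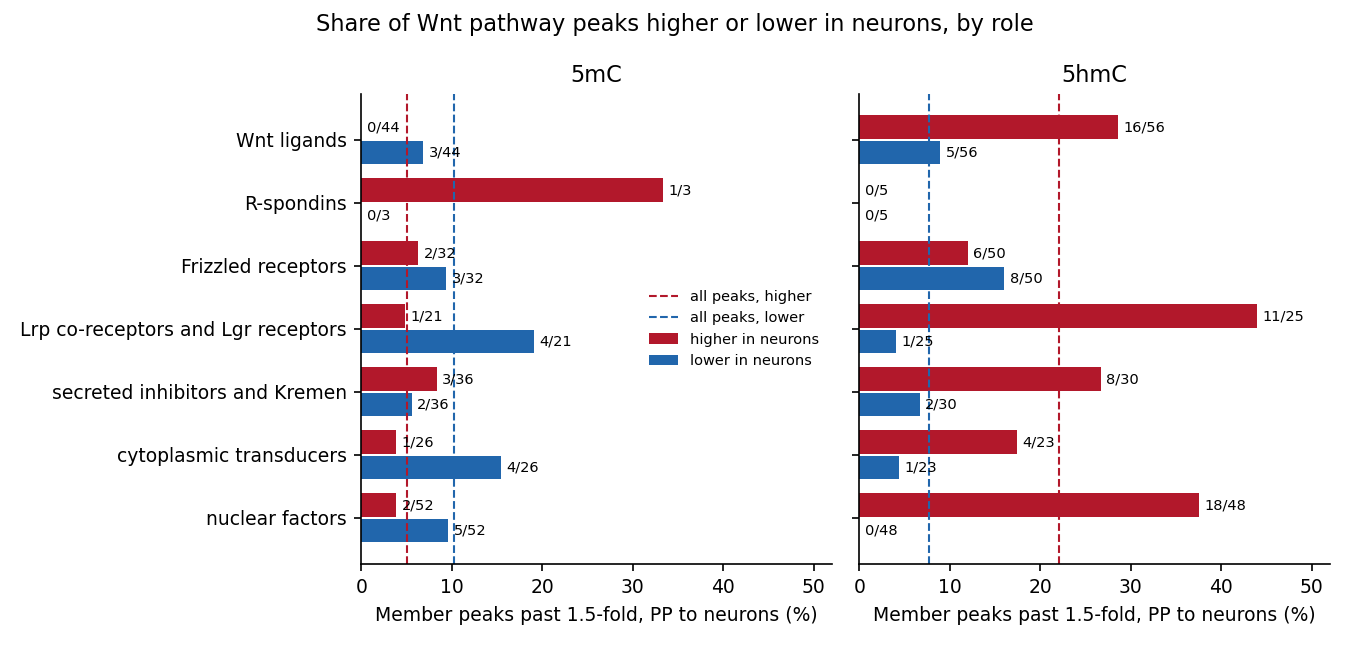
Bars give the percentage of member peaks of each role that were higher (red) or lower (blue) in neurons than in PP by at least 1.5-fold, with peak counts beside them, and dashed lines give the same percentage over all peaks. In 5hmC the Frizzled receptors had 6 of 50 peaks higher and 8 of 50 lower, while the nuclear factors had 18 of 48 higher and 0 lower.

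By role, the 5hmC shares lay on either side of that background. From PP to neurons, 18 of the 48 peaks near the nuclear factors (37.5%) and 11 of the 25 near the Lrp and Lgr receptors (44%) were higher, and 0 and 1 were lower. Near the Frizzled receptors 6 of 50 (12%) were higher and 8 (16%) lower, with a median difference of -0.18 against 0.41 for the nuclear factors and 0.42 for Lrp and Lgr. Wnt ligands (16 of 56 higher, 5 lower), secreted inhibitors (8 of 30 higher, 2 lower) and cytoplasmic transducers (4 of 23 higher, 1 lower) lay between them, and none of the 5 peaks of the R-spondins passed. These shares were counted after the values were known. Without Wif1, 3 of 17 inhibitor peaks were higher (17.6%, down from 26.7%), which turned that share from above to below the background, and without Wnt5b, 10 of 44 ligand peaks were higher (22.7%, down from 28.6%). Without Tcf7l2, 6 of 18 nuclear factor peaks were higher (33.3%). Without Lrp6, 6 of 18 Lrp and Lgr peaks were higher, and without Fzd1, 4 of 39 Frizzled peaks were higher and 6 lower. In 5mC 3 of 44 Wnt ligand peaks were lower (6.82%, beside 10.2% of all 5mC peaks). Lower too were 4 of 21 Lrp and Lgr peaks (19.0%) and 4 of 26 near cytoplasmic transducers (15.4%). The nuclear factors had 5 of 52 lower (9.62%), the Frizzled receptors 3 of 32 (9.38%), the inhibitors 2 of 36 (5.56%) and the R-spondins 0 of 3. Higher 5mC was counted at no Wnt ligand peak and at 1 to 3 peaks of each other role.

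**Figure D2:**
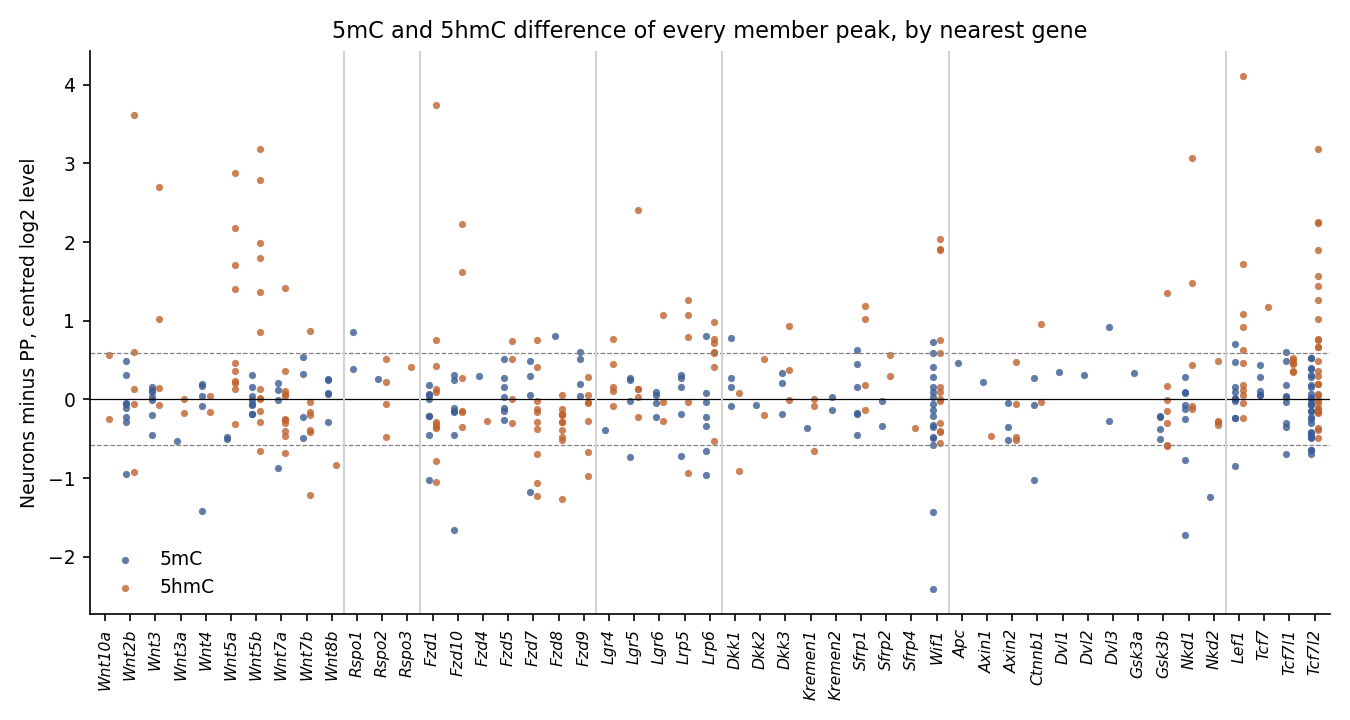
Each point is 1 member peak placed above its nearest gene, with genes ordered by role, and the vertical axis is the centred log2 difference of neurons minus PP for 5mC (blue) and 5hmC (orange). Dashed lines mark 1.5-fold, and the 5hmC points reach 4.11 at Lef1 while the 5mC points reach down to -2.41 at Wif1. Both of these peaks had a mean level under 4.

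Single peaks are given below by their levels in PP, DP and neurons in that order. Ranks from here on are among members with a mean level of at least 4 unless all members are named. Where the highest, larger or lowest peak within 1 gene is given, it is over all peaks of that gene, whatever their mean level. Among the Wnt ligands, Wnt5b, which mostly signals without beta-catenin, had the most peaks with higher 5hmC in neurons, 6 of 12, with 1 lower. At 10.9 kb inside the gene its 5hmC level was 2.03 (PP), 3.59 (DP) and 5.13 (neurons), a difference of 3.18. At 21.4 kb upstream the levels were 2.77, 3.70 and 5.49. The level climbed at each step at both places, whereas the 8 5mC peaks of the gene had PP to neuron differences between -0.19 and 0.32. Step by step, 1 of the 8 was higher from PP to DP and 2 were lower from DP to neurons. Another 5hmC peak, 20.9 kb inside, was among the member peaks with the most gain already in DP, at 3.89, 5.01 and 5.80. A neighbouring peak 14.7 kb inside ran the other way, with a level of 4.86 (PP), 3.61 (DP) and 4.78 (neurons). It had both the lowest PP to DP difference, at -1.25, and the third highest DP to neuron difference, at 1.19.

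Wnt2b, a ligand of the cortical hem, had 2 of 5 5hmC peaks higher and 1 lower. It had a 5hmC level of 2.31 (PP), 3.18 (DP) and 5.84 (neurons) at chr3:105005803-105005942. This place lies 44.2 kb upstream and within the body of Cttnbp2nl. The overlapping 5mC peak had 4.44, 3.55 and 3.31, so 5mC was lower already in DP and most of the 5hmC gain came after DP. Wnt3 had 2 of 4 5hmC peaks higher, with no 5mC peak of 7 past the fold. The larger 5hmC difference lay 37.3 kb inside at 2.55, 3.69 and 5.16, with a mean level under 4. Wnt5a had 4 of 10 higher and none lower, all 4 within Erc2 and between 83.8 and 373 kb upstream. The highest of them had 2.02, 3.59 and 4.82, with a mean level under 4. Wnt4, a ligand also known from kidney and gonad, had the lowest 5mC difference among all ligand peaks, those with a mean level under 4 included, at 22.7 kb upstream. Its levels were 4.69, 4.07 and 3.10, with a mean of 3.95 and a difference of -1.42.

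Wnt7b, expressed in deep cortical layers, had 1 5hmC peak of 7 in each direction, close together. The lower lay 41.9 kb upstream with levels of 4.74, 4.41 and 3.44, and ranked second lowest both from DP to neurons (-0.95) and from PP to neurons (-1.22). The higher lay 45.0 kb upstream with 4.83, 4.98 and 5.62. Wnt7a was similarly split, with 1 of 11 higher (1.42) and 1 lower (-0.68), and had 1 of 4 5mC peaks lower (-0.88). The single 5hmC peak of Wnt8b was lower, at 4.81, 4.51 and 3.89, and no peak of Wnt3a or Wnt10a passed from PP to neurons.

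R-spondins bind Lgr receptors and keep Frizzled on the cell surface. Rspo2 had the highest 5mC difference from PP to DP among members with a mean level of at least 4. That peak lay 94.4 kb inside the gene at 4.11 (PP), 4.88 (DP) and 4.20 (neurons), so the difference of 0.78 was not kept in neurons. Rspo1 had a 5mC peak 13.8 kb upstream with 3.42, 3.65 and 4.11, higher by 0.86 from PP to neurons. Rspo3 had 1 5hmC peak, with a difference of 0.42.

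Frizzled genes are short, and 3 of the 82 peaks assigned to them lay inside the gene. Fzd10 had the highest level of 5mC in PP of the loci with both marks past the fold, at chr5:128667873-128668015, 66.8 kb downstream. Its 5mC level was 7.84 (PP), 7.72 (DP) and 6.0 (neurons), and its differences of -1.54 from DP to neurons and -1.67 from PP to neurons were the second lowest and the lowest among members with a mean level of at least 4. The overlapping 5hmC peak had 5.40, 6.39 and 6.94. The 5hmC gain was thus larger from PP to DP and the 5mC fall larger from DP to neurons.

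Fzd1 had its largest differences 91.6 kb downstream, at chr5:4666556-4666721, where the 5hmC peak had a mean level under 4. There 5hmC went from 1.63 in PP to 3.18 in DP and 5.29 in neurons, while 5mC was 4.18, 4.95 and 2.98. Its 5mC difference of 0.78 at the first step was followed by -1.79 at the next, the lowest DP to neuron difference of the members with a mean level of at least 4. Elsewhere at Fzd1 2 of 11 5hmC peaks were lower, with differences of -0.79 and -1.06, and a peak 1.44 kb upstream was higher at 4.95, 5.55 and 5.62. Fzd7 had 3 of 10 5hmC peaks lower. The lowest lay 51.8 kb upstream (4.92, 4.31 and 3.61) and 3.75 kb from the start inside its annotated body (4.82, 3.92 and 3.68), with differences of -1.23 and -1.07. A 5mC peak 101 kb upstream of Fzd7 had 5.75, 5.61 and 4.39, the third lowest in 5mC both from DP to neurons (-1.04) and from PP to neurons (-1.18).

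Fzd8 and Fzd9 leaned to lower 5hmC and higher 5mC. Of the 11 5hmC peaks of Fzd8 the highest difference was 0.06 and the lowest -1.27. The lowest was at 4.19, 4.14 and 2.84, with a mean level under 4. Its single 5mC peak had 4.23, 4.61 and 4.87, the second highest PP to neuron difference in 5mC at 0.81. Fzd9 had 2 of 7 5hmC peaks lower (-0.97 and -0.67) and 4 5mC peaks with differences between 0.04 and 0.60. Fzd5 had 1 5hmC peak higher and none lower, and neither peak of Fzd4 passed.

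The co-receptor Lrp6 had 5 of 7 5hmC peaks higher, all inside the gene and each by less than a log2 difference of 1. Their levels in neurons lay between 4.48 and 4.84, above each of their levels in PP, which lay between 3.79 and 4.32. In 3 of the 5 the level in DP was below that in PP. 5mC at Lrp6 was mixed, with 2 of 7 peaks lower inside the gene and 1 higher 20.7 kb upstream at 4.43, 4.58 and 5.06, the third highest PP to neuron difference (0.81). A further 5mC peak 59.5 kb inside had 6.10, 5.42 and 5.59, the third lowest from PP to DP at -0.67. Lrp5 had 3 of 5 5hmC peaks higher and 1 lower, the highest at 5.04, 5.62 and 6.23, and 1 of 5 5mC peaks lower (-0.72).

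Lgr5, an R-spondin receptor best known as a stem cell marker of the gut, had the highest 5hmC difference both from PP to DP (1.28) and from PP to neurons (2.40) among members with a mean level of at least 4. The peak at chr10:115689869-115690007, 102 kb upstream, had 3.16 (PP), 4.44 (DP) and 5.49 (neurons). The 5mC peak that overlapped it by 27 bp had 5.91, 5.58 and 5.00. Lgr6 had 1 of 3 5hmC peaks higher (1.07) and Lgr4 1 of 5 (0.77). Another Lgr4 peak, 18.5 kb inside, had 4.91, 3.97 and 4.74, the third lowest from PP to DP at -0.93.

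Secreted inhibitors were led by Wif1 in peak number and in the size of the differences. At the edited region 4.33 kb upstream the 5hmC level was 4.05 (PP), 4.98 (DP) and 6.0 (neurons), and the 5mC level 5.85, 5.29 and 4.25. At both steps the 5hmC level was higher and the 5mC level lower, though the 5mC difference from PP to DP, -0.56, did not reach 1.5-fold. From PP to neurons the 5hmC difference of 2.04 was the third highest and the 5mC difference of -1.43 second lowest among members with a mean level of at least 4. A 5hmC peak 128 kb downstream had the second highest PP to DP difference, 1.15, at 3.19, 4.34 and 5.01. Of the 17 5mC peaks 2 were lower and 1 higher from PP to neurons. The lowest 5mC difference of all members lay 7.33 kb inside at 4.38, 3.51 and 1.80, and no 5hmC peak overlapped it. That peak also had the lowest mean level of the 5mC members, 3.23, where fewer reads stand behind a value. The peak 17.8 kb inside was higher, at 3.97, 4.61 and 4.52, with the third highest 5mC difference from PP to DP at 0.64. At 54.6 kb inside 5mC was low in DP alone, with 5.49, 4.20 and 4.84, which made it the lowest difference from PP to DP (-1.28) and the highest from DP to neurons (0.82). Neighbouring peaks of this gene did not share a direction.

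Sfrp1, which sequesters Wnt ligands, had 2 of 4 5hmC peaks higher from PP to neurons. The peak 18.3 kb inside had 3.97, 3.73 and 4.91 and was second highest from DP to neurons at 1.20. Another, 94.1 kb downstream, had 5.86, 4.83 and 5.65, second lowest from PP to DP at -1.03 with the level nearly regained in neurons. 1 of its 6 5mC peaks was higher (0.62). Dkk1, which blocks Lrp5 and Lrp6, had the lowest DP to neuron difference in 5hmC, -1.01, at 4.69, 4.72 and 3.69. This peak lay 64.7 kb upstream, within Prkg1, and 1 of 4 5mC peaks of the gene was higher from PP to neurons (0.78). Dkk3 had 1 of 3 5hmC peaks higher and Kremen1 1 of 3 lower, and the peaks of Dkk2, Kremen2, Sfrp2 and Sfrp4 did not pass from PP to neurons.

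The cytoplasmic transducers had few peaks. Nkd1 had 2 of 8 5mC peaks lower and 2 of 5 5hmC peaks higher. Besides the peak over its internal start, 5mC 12.7 kb inside had 4.55, 4.44 and 2.66, and 5hmC 43.5 kb inside had 1.65, 3.22 and 4.64, a difference of 3.07. These places did not overlap. Nkd2 had its single 5mC peak lower (4.66, 3.88 and 3.24). Dvl3, a Dishevelled, had the highest PP to neuron difference in 5mC, 0.93, with 4.24, 4.76 and 5.00 at 3.25 kb upstream. Axin2, itself a widely used readout of Wnt activity, had the second lowest PP to DP difference in 5mC, -0.76, at 12.5 kb upstream (4.68, 3.92 and 3.99). Its 5hmC peak next to the promoter had 5.32, 4.92 and 5.72. The PP to neuron difference of 0.48 did not pass, while from DP to neurons the peak was higher past the fold. Ctnnb1 had 1 of 3 5mC peaks lower, 47.8 kb upstream (5.06, 5.00 and 3.86), and 1 of 2 5hmC peaks higher (4.87, 5.48 and 5.75), 63.3 kb upstream. Gsk3b had 1 5hmC peak of 7 in each direction, and the peaks of Apc, Axin1, Dvl1, Dvl2 and Gsk3a did not pass from PP to neurons.

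**Figure D3:**
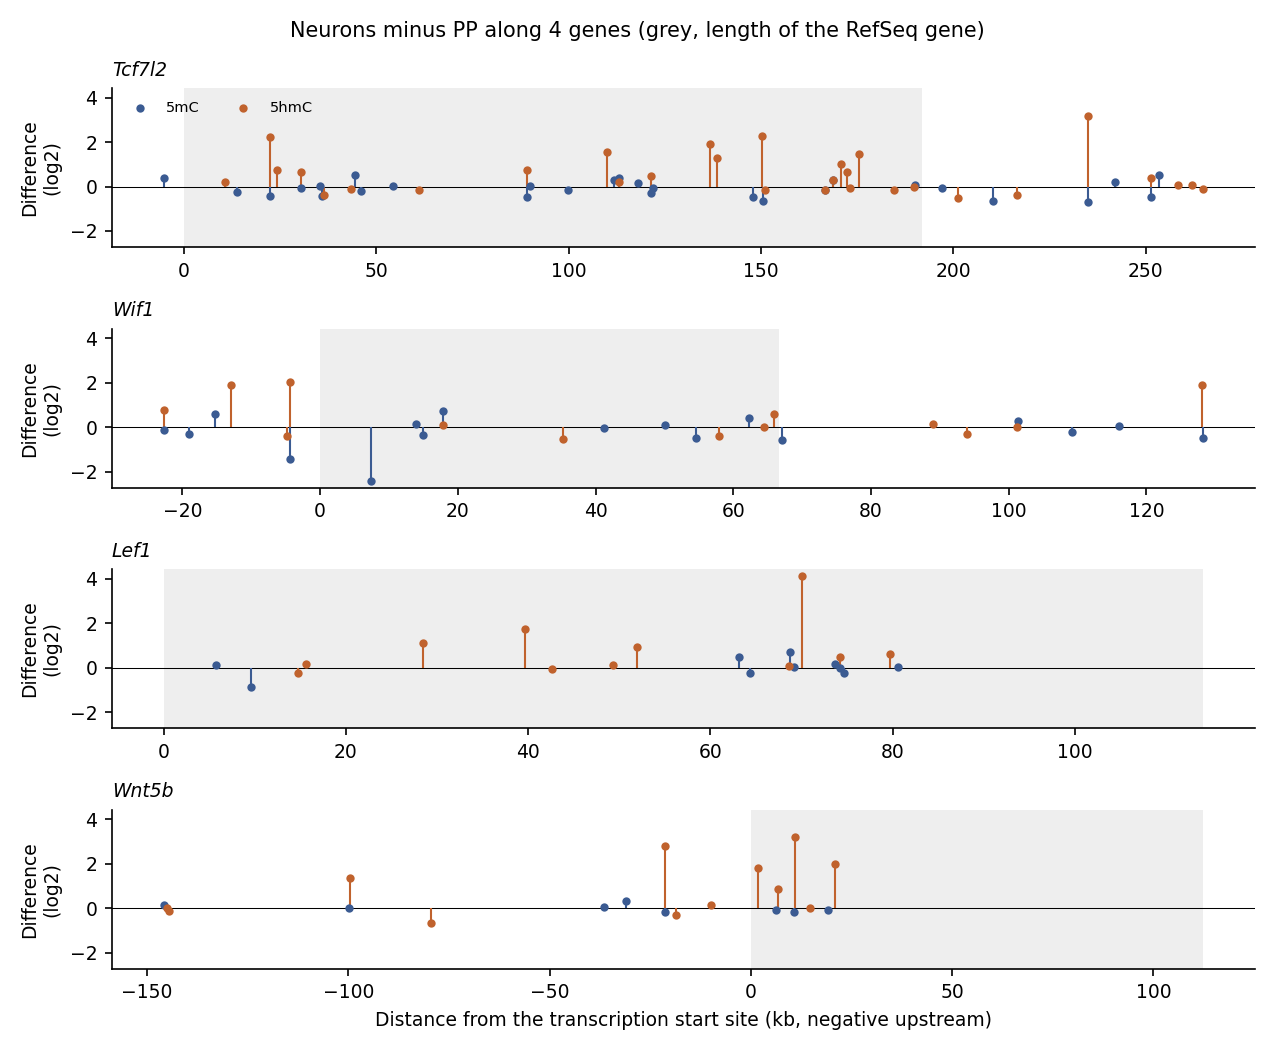
Member peaks of Tcf7l2, Wif1, Lef1 and Wnt5b are placed by distance in kb from the start site, with the height giving the centred log2 difference of neurons minus PP for 5mC (blue) and 5hmC (orange), and grey spanning the length of the RefSeq gene. At Tcf7l2 12 of 30 5hmC peaks passed upward and none downward, and tall 5hmC lines stand between peaks with little difference in each gene.

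Nuclear factors, which bind DNA and recruit beta-catenin, included Tcf7l2, the longest of the 49 genes at 192 kb in RefSeq. Over all members of either mark, whatever their mean level, the highest difference from PP to neurons was in 5hmC at Lef1, 70.1 kb inside at chr3:131180458-131180611, with a 5hmC level of 1.62 (PP), 4.06 (DP) and 5.65 (neurons) and a mean under 4. Much of this gain was present in DP. Close by, the 5hmC peak 68.7 kb inside had 4.05, 4.93 and 4.02, the third lowest from DP to neurons at -0.89. Of the 11 5hmC peaks of Lef1 5 were higher and none lower. In 5mC 1 peak was higher and 1 lower, and a peak 63.1 kb inside with 4.21, 3.96 and 4.51 was second highest from DP to neurons at 0.73.

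Tcf7l2 had 12 of 30 5hmC peaks higher from PP to neurons, 11 of them inside the gene, and 3 of 28 5mC peaks lower. Its highest 5hmC difference, 3.18, lay 235 kb downstream at 2.20, 3.43 and 5.29, with a mean level under 4. The peak 22.4 kb inside had 3.14, 3.61 and 5.29, the highest difference from DP to neurons (1.71) and the second highest from PP to neurons (2.24) among members with a mean level of at least 4. Its 5mC differences ran from -0.69 to 0.53, and the peak 112 kb inside was the third highest from DP to neurons at 0.67 (4.53, 4.16 and 4.65). Tcf7l1 showed another picture, with 6 5hmC peaks between 0.34 and 0.53 of difference, all on the higher side and none past the fold, and with 1 of 9 5mC peaks higher and 1 lower. Tcf7 had its single 5hmC peak higher, 2.43 kb upstream (3.36, 3.80 and 4.45).

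**Figure D4:**
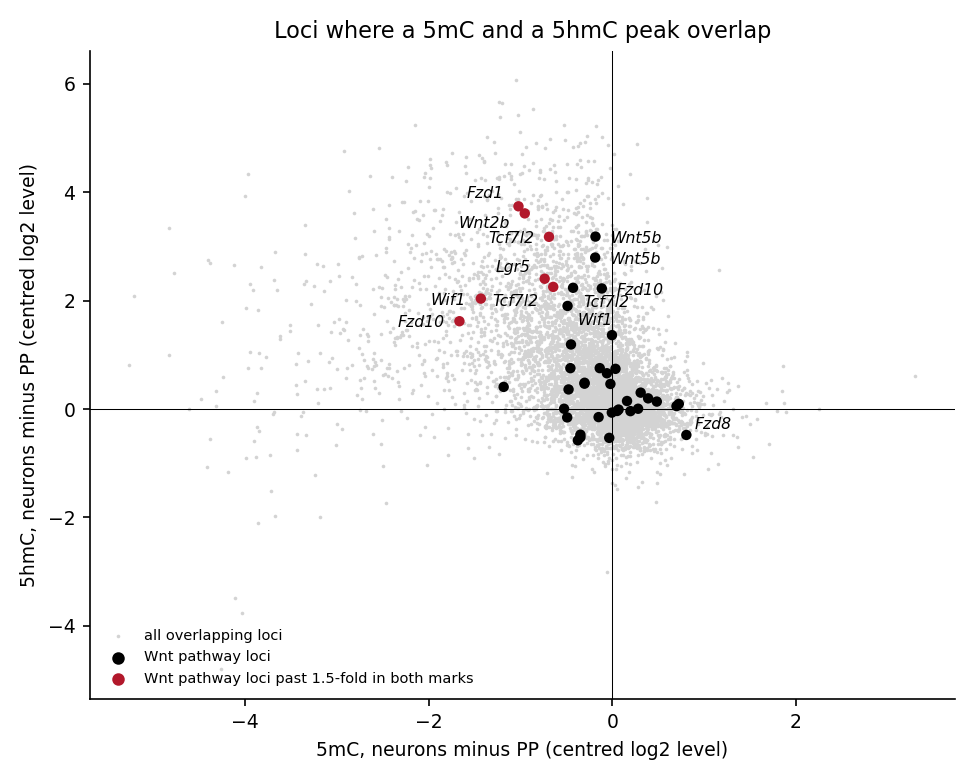
Each point is a place where a 5mC and a 5hmC peak overlapped, with the centred log2 difference of neurons minus PP for 5mC on the horizontal and for 5hmC on the vertical axis. The 42 Wnt pathway loci are black or, where both marks passed 1.5-fold, red (7 loci), over all 6727 overlapping loci in grey.

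A 5mC and a 5hmC member peak overlapped by at least 1 bp at 42 loci of 21 genes, which is 19.2% of the 5mC and 17.7% of the 5hmC members, beside 12.2% and 14.2% of all peaks. A single Axin2 5mC peak overlapped 2 5hmC peaks. From PP to neurons 5mC was lower and 5hmC higher past 1.5-fold in both marks at 7 loci (16.7%), beside 18.8% of all 6727 overlapping loci. They lay at Fzd1, Wnt2b, Wif1, Fzd10, Lgr5 and 2 places of Tcf7l2. Of these, the 3 at Wif1, Fzd10 and Lgr5 had a mean level of at least 4 in both marks. 5hmC alone was higher at 18 of the 42 (42.9%, the same share as the 42.9% over all overlapping loci), and was lower past the fold at none, beside 3.27% of all. At 17 of those 18 the 5mC difference was below 0, with a median of -0.45 and a range of -1.67 to 0.03. At the other 24 its median was -0.01 and 13 were below 0. The counts below 0 at the 18 and the 24 were not set beside all overlapping loci. Without a fold, 5mC was below 0 and 5hmC above 0 at 23 of the 42 (54.8%), beside 51.5% of all overlapping loci. Across the 42 loci the differences of the 2 marks had a Spearman correlation of -0.48, against -0.51 across all overlapping loci. These points share cell types and DNA pools, and near loci of 1 gene are not independent.

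**Figure D5:**
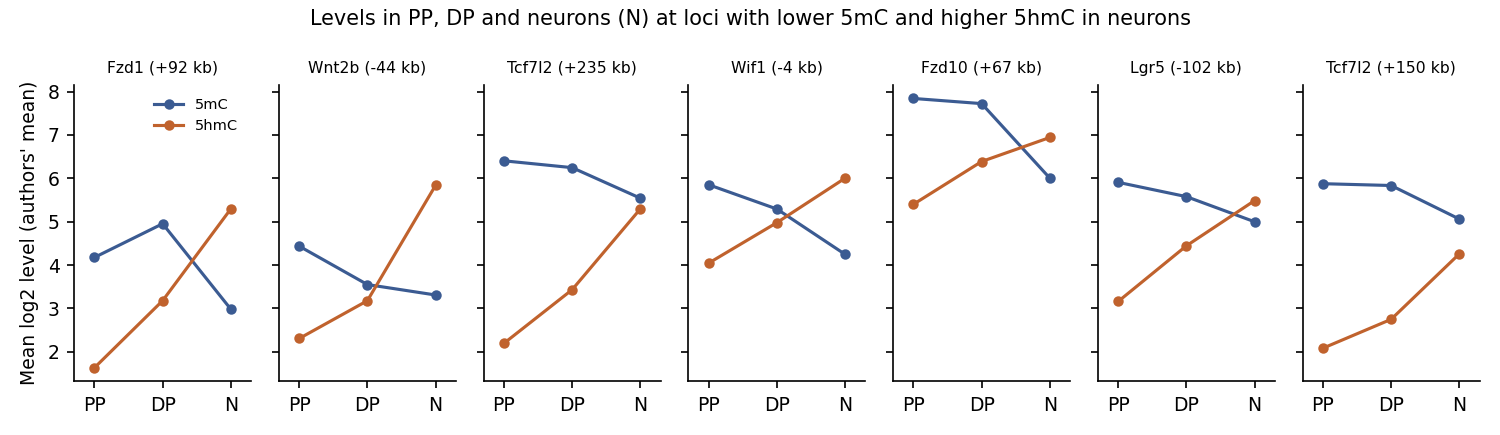
Each panel is 1 of the 7 loci with lower 5mC and higher 5hmC in neurons, titled by gene and distance from the start, and shows the authors' mean log2 level of 5mC (blue) and 5hmC (orange) in PP, DP and neurons. 5hmC climbs at both steps in all 7 panels, and 5mC at Fzd1 stands at 4.95 in DP, above its 4.18 in PP.

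In the 7 loci 5hmC was above its earlier level at each step, and 5mC was below it at each step in all but Fzd1. The second Tcf7l2 locus, 150 kb inside, had 5hmC levels of 2.08, 2.75 and 4.26 over 5mC levels of 5.88, 5.83 and 5.06. At the first, 235 kb downstream, 5mC stood at 6.40, 6.25 and 5.54. At the 11 other loci with higher 5hmC, 5mC did not pass. They included both Wnt5b loci named above, with 5mC differences of -0.18 and -0.19, and another at 99.7 kb upstream with 1.36 in 5hmC and -0.00 in 5mC. At Fzd10, 24.9 kb downstream, 5hmC differed by 2.23 and 5mC by -0.11. At Wif1, 128 kb downstream, the values were 1.90 and -0.49, and 22.7 kb upstream they were 0.75 and -0.14. Sfrp1, 66.4 kb downstream, had 1.19 and -0.45. Tcf7l2 had 2.24 and -0.43 at 22.5 kb, 0.75 and -0.46 at 89.3 kb and 0.66 and -0.06 at 30.5 kb inside. Fzd5, 2.14 kb inside, had 0.74 in 5hmC beside 0.03 in 5mC.

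Of the 24 loci without higher 5hmC, 1 had lower 5mC past the fold, the Fzd7 place 101 kb upstream, with 0.41 in 5hmC beside -1.18. In 3 loci 5mC was higher past the fold, at Wif1 17.8 kb inside (0.72 in 5mC and 0.10 in 5hmC), at Lef1 68.7 kb inside (0.70 and 0.05) and at Fzd8 28.0 kb downstream (0.81 and -0.48). Fzd8 was the reverse of the pattern at the 7 loci, though its 5hmC difference did not reach 1.5-fold. The remaining 20 passed in neither mark. Among them 5mC differed by -0.53 at Wnt3a and -0.49 at Wnt7b with 5hmC at 0.01 and -0.16, and by -0.35 at the shared Axin2 peak with 5hmC at -0.47 and -0.52. Gsk3b had -0.38 and -0.58, and Lrp6 had -0.03 and -0.53, so 5hmC was on the lower side there too. In the other 14, which belonged to Tcf7l2, Tcf7l1, Lef1, Wnt3, Wnt2b, Lgr6, Fzd9 and Wif1, 5mC lay between -0.48 and 0.48 and 5hmC between -0.15 and 0.48.

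Most members had no overlapping peak of the other mark. Of 173 such 5mC peaks 13 were lower from PP to neurons (7.51%, beside 8.30% of all 5mC peaks of this kind) and 7 higher (4.05%, beside 5.18%). Of 195 such 5hmC peaks 45 were higher (23.1%, beside 18.6%) and 17 lower (8.72%, beside 8.44%).

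Some member peaks stood out in DP alone. 5hmC in DP was below both PP and neurons by 1.5-fold at 8 members of 8 genes (3.38%, beside 1.34% of all 5hmC peaks), which were Fzd5, Fzd7, Lef1, Lgr4, Lrp5, Sfrp1, Sfrp2 and Wnt5b. It was above both at 4 (1.69%, beside 0.805%), near Dkk3, Lef1, Tcf7l2 and Wnt5a. At the Sfrp2 peak, 20.5 kb upstream, the 5hmC level was 4.65 (PP), 3.99 (DP) and 4.87 (neurons), and at a Dkk3 peak, 30.3 kb inside, 3.94, 4.95 and 4.23. In 5mC DP was above both at 4 (1.87%, beside 1.26%), near Fzd1, Tcf7l1 and Wnt5b, and below both at 3 (1.40%, beside 1.68%), near Nkd1, Sfrp1 and Wif1. A Wnt5b 5mC peak 36.5 kb upstream and within Erc1 had 3.57, 4.64 and 3.45. Among members with a mean level of at least 4, 6 of the 8 and 3 of the 4 5hmC peaks were left, and 1 of the 4 and 1 of the 3 5mC peaks. A level in DP is a middle point with its own error, which could not be measured here.

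Expression of the nearest genes was listed in the same tables as scores from the authors' earlier RNA sequencing of these cell types, on a scale that is not named. Scores were therefore compared within a gene, apart from the marker sums below, in which genes with high scores weigh most. On fixed marker lists, all 5 PP markers, all 4 DP markers and the 4 neuron markers that were found were highest in their own cell type. Btg2 and Tubb3, whose reporters defined the sort, were among them, so their order is no independent check of identity. Summed scores of the microglial pair Cx3cr1 and Csf1r were 309 (PP), 189 (DP) and 74.9 (neurons), those of 3 endothelial markers 352, 308 and 86.1, and those of 3 interneuron markers 898, 3434 and 9244. Those of 3 genes of the oligodendrocyte lineage were 326, 446 and 36.1. Kdr was highest in DP, unlike the other endothelial markers, and Pdgfra was highest in PP, unlike Olig1 and Olig2. The part of such other cells in the peak levels was not tested.

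Of the 49 member genes 40 had a score of at least 100 in some cell type. Most of these 40 Wnt pathway genes had lower scores in neurons. From DP to neurons 26 of the 40 were lower by 1.5-fold (65%, beside 22.6% of all 11326 such genes) and 4 were higher (10%, beside 25.7%). From PP to neurons 22 were lower (55%, beside 26.1%) and 7 higher (17.5%, beside 31.1%). From PP to DP 12 were higher (30%, beside 13.2%) and 9 lower (22.5%, beside 11.3%). In DP 7 genes were above both other cell types (17.5%, beside 1.92%), namely the ligands Wnt2b, Wnt3a and Wnt8b, the R-spondins Rspo1 and Rspo2, the receptor Fzd10 and Lef1. Wnt8b was scored 80.9 (PP), 1131 (DP) and 15.7 (neurons), Wnt3a 19.1, 269 and 2.80, and Rspo2 60.4, 671 and 49.6. Rspo3 was scored 66.7, 795 and 2511, so it continued to higher scores in neurons. These scores had no replicate values either.

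Expression and peak levels did not run in a single direction. Of the 24 genes that gained 5hmC at a peak by the neuron stage, 20 had a score of at least 100, and of these 11 showed a lower and 4 a higher expression score in neurons. Of the other 20 genes with such a score, which had no such peak, 11 were lower and 3 higher. Genes of the first kind had a median of 12.5 peaks and those of the second 2.5. Tcf7l2, with 12 peaks of higher 5hmC, was scored 1591 (PP), 807 (DP) and 61.4 (neurons). Tcf7l1 went from 5888 to 2451 and 101, and Fzd8, with 1 of 11 5hmC peaks lower, from 14205 to 5574 and 596. Nkd1 had 2 of 5 5hmC peaks higher and 2 of 8 5mC peaks lower beside scores of 521, 2373 and 2194. Wnt7b had 1302, 5309 and 25350 with 1 5hmC peak in each direction. Wif1, below the score of 100 and so not among these genes, had 9.40, 95.3 and 8.0.

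Other genes of the pathway were read from a list of 54, which holds Wnt secretion factors, planar polarity receptors, ubiquitin ligases of Frizzled, casein kinases and nuclear cofactors. Of these, 41 had a 5mC peak and 41 a 5hmC peak, 230 and 241 peaks in all. From PP to neurons 5mC was higher at 11 (4.78%, beside 5.00% of all peaks) and lower at 28 (12.2%, beside 10.2%). 5hmC was higher at 60 (24.9%, beside 22.1%) and lower at 11 (4.56%, beside 7.71%). From PP to DP 5hmC was higher at 30 (12.4%, beside 11.2%) and lower at 10 (4.15%, beside 4.68%). 5mC was higher at 4 (1.74%, beside 4.60%) and lower at 11 (4.78%, beside 5.44%). From DP to neurons 5hmC was higher at 50 (20.7%, beside 16.5%) and lower at 19 (7.88%, beside 7.07%). 5mC was higher at 10 (4.35%, beside 5.12%) and lower at 20 (8.70%, beside 9.36%). The median PP to neuron difference was -0.05 for 5mC and 0.13 for 5hmC, beside -0.00 and 0.06 for the members.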

How the data were processed

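5mC and 5hmC were measured by comparative (h)MeDIP in PP, DP and neurons of E14.5 mouse cortex. According to the methods and the submitters' processing notes, the authors mapped the single-end reads with BWA 0.7.8-r455 (mm10), used SICER 1.1 for peaks, kept peaks present in each replicate of a cell type, dropped repeats and computed TMM-normalised levels with DiffBind. The deposited levels are log2 means over replicates, 1 per peak, cell type and mark. The deposited expression score comes from the authors' earlier RNA sequencing, with its scale not named, and the distance, also stored as a score, is in bp from the start site, negative upstream. Fold changes and p-values of the authors' own comparisons stood beside the levels and were not used. The depth behind a peak is not given in the sources used here.

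Members were rows whose gene symbol matched a fixed pattern. The members, the lists and the named loci were chosen with earlier results of these data known, and the counts by role, in DP alone and of expression scores were added after the values were seen. Levels were differenced, centred on the median over all peaks of the mark and called past 1.5-fold. With 1 value per group no p-value was computed. Peaks overlapped from 1 bp. Named by rule were the 3 highest and 3 lowest members per mark and comparison with a mean level of at least 4, all overlapping loci, the Wif1 region and the 5 genes with most peaks. Other peaks past the fold and those near promoters were chosen after their values were seen. All genes with a peak are accounted for. Alternatives were levels not centred, 2-fold, a mean level of at least 4, peaks within 50 kb of a start and overlap of at least 50% of the shorter peak. Motifs planned for the peaks were searched in RefSeq promoters (GRCm38.p6) instead, since no genome sequence was used here. Centring, calling and overlap were tested on simulated data. Scripts ran in Python 3.11.15 with pandas 2.3.3 and numpy 2.4.6.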

Additional observations from a re-analysis of the deposited data

How the results depend on the processing

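No paired analysis was possible because the tables hold 1 mean per cell type and mark, and no replicate could be left out for the same reason. Of the 52 alternative counts computed for the main comparisons, 21 stayed within 1.5 times the count reported and 31 did not. Fewer peaks or a stricter fold lower a count by construction, and leaving out the centring shifts all differences of a comparison alike. The cause of a change was otherwise not tested. The 31 that did not are listed first, with the share of all peaks at the same setting in brackets. At 2-fold, from PP to DP, DP to neurons and PP to neurons, higher 5mC was counted at 1, 1 and 0 member peaks (0.659, 0.704 and 0.677%), lower 5mC at 1, 7 and 9 (0.960, 3.30 and 4.00%), higher 5hmC at 15, 26 and 40 (5.07, 8.03 and 14.2%) and lower 5hmC at 3, 2 and 5 (0.560, 1.19 and 1.24%), and both marks past the fold at 3 overlapping loci (9.22%). Without centring, higher 5mC was counted at 3 peaks from DP to neurons (2.26%) and at 5 from PP to neurons (2.12%), lower 5mC at 39 from PP to neurons (16.3%), and both marks past the fold at 11 overlapping loci (22.4%). With a mean level of at least 4, higher and lower 5mC from PP to DP were counted at 3 and 4 of 189 peaks (4.06 and 3.89%), higher 5hmC at 18, 29 and 39 of 207 in the 3 comparisons (7.15, 11.0 and 16.3%), and both marks past the fold at 3 of 28 loci (11.8%). Within 50 kb of a start, 5mC from PP to DP was higher at 4 and lower at 7 of 140 (4.46 and 5.31%), from DP to neurons higher at 6 and lower at 18 (5.12 and 8.70%), and from PP to neurons lower at 13 (9.53%), and 5hmC from PP to DP was higher at 14 and lower at 9 of 139 (11.3 and 4.70%) and from PP to neurons higher at 32 (22.7%). Among the counts that stayed, 5hmC within 50 kb was higher from DP to neurons at 35 of 139 (25.2%, beside 16.9%). This was the widest gap from the share of all peaks at any of these settings. It was lower there at 11 (7.91%, beside 6.98%). Without centring, the named 5mC peaks of Lef1 (0.55) and Tcf7l2 (0.49) no longer passed 1.5-fold from DP to neurons, and no named peak changed sign. Added after the data were seen, a mean level of at least 4 left 8 of 47 Wnt ligand, 11 of 40 nuclear factor, 9 of 23 Lrp and Lgr and 3 of 43 Frizzled 5hmC peaks higher in neurons, beside 16.3% of all such peaks. A score minimum of 10 left 29 of 49 member genes lower from DP to neurons (26.0% of all such genes) and 10 highest in DP (2.63%). At that minimum 8 were higher from DP to neurons (26.2%). From PP to neurons 22 of the 49 were lower (44.9%, beside 30.2%) and 13 higher (26.5%, beside 30.5%), so fewer than most were lower there. The depth behind a level is unknown, so the precision of single differences could not be given.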
